A study of Mus musculus with 6 samples.

Results

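The genes of the MCM helicase and of replication licensing were followed here in RNA sequencing of sorted mouse bone marrow cells: Mcm2, Mcm3, Mcm4, Mcm5, Mcm6, Mcm7, Mcm10, Cdc6, Cdt1 and Gmnn. They were chosen by symbol, and all 10 were found among the 21878 genes listed and among the 10620 genes tested. The cells came from the bone marrow of wild type (WT) mice that ate a control diet (CD) or, over 3 months, food free of serine and glycine (SGFD). The sort gate for long-term hematopoietic stem cells (LT-HSCs) took c-Kit+ Sca1+ cells that lacked CD34, CD135 and lineage antigens. Each diet had 3 libraries, and all mice were described as randomized and matched for background. The labels give no age, and they do not say whether a library came from 1 mouse or from several, so a p-value here reflects sample-to-sample spread that may be technical.

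Before a cell copies its DNA, each origin of replication must be licensed. The origin recognition complex and CDC6 sit on the origin, and with the help of CDT1 they load MCM2 to MCM7, the ring-shaped helicase that will unwind the DNA, as an inactive double ring. Geminin, the product of Gmnn, binds CDT1 and blocks further loading once S phase has begun, so that no origin fires again in the same cycle. MCM10 joins later, when the loaded helicase is switched on. Stem cells that rest outside the cycle are known to hold little of the licensing machinery, and cells preparing to divide build it up.

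Mcm7, Cdt1 and Mcm5 were modestly higher with SGFD, by 19.4%, 14.3% and 11.2% of the CD mean, and these were the only genes of the 10 that passed the test on the deposited values. Mcm2, Mcm3, Mcm4, Mcm6, Mcm10, Cdc6 and Gmnn did not pass, and no member passed in the lower direction. Of all 10620 tested genes 59.4% passed, 17.7% as higher and 41.8% as lower, so 3 of 10 and 0 of 10 stand beside those shares. The values of 5 members did not overlap between diets, all higher with SGFD, beside 65.2% of tested genes in either direction and 19.6% in that direction. The median log2 fold change of the 10 genes was 0.07 and that of all tested genes -0.13. On the deposited values each of the 10 lay above the latter. After quantile normalization Mcm2, Mcm3, Mcm4 and Mcm6 lay below the median of all tested genes (-0.107, -0.15, -0.126 and -0.204 against -0.017). Fold changes here are on the scale of log2(FPKM + 1), where FPKM counts fragments relative to transcript length and library size. The test is limma's moderated test over all genes, with Benjamini-Hochberg adjustment and a threshold of 0.05.

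How these differences read depends on the scale between libraries, since FPKM summed to 427769 to 433592 in the CD libraries and to 464222 to 485048 in the SGFD libraries. After the libraries were scaled by their median ratio, 9 of the 10 genes passed as higher and none as lower, Cdc6 being the exception. With equal FPKM totals Mcm7 alone passed as higher and 5 genes, Mcm2, Mcm3, Mcm4, Mcm6 and Cdc6, passed as lower. After quantile normalization Mcm10 and Cdt1 were higher, and Mcm2, Mcm3, Mcm4 and Mcm6 were lower. Mcm7 and Cdt1 were above 0 under all 3 scalings, whereas Mcm5 was at -0.01 after quantile normalization. Ratios between genes of the same library, given below for the helicase subunits, do not change when a library is multiplied by a constant.

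The cells carried markers of more than 1 cell type, which may bear on the values of the licensing genes. Of 14 LT-HSC markers none was at 0 throughout; of the 13 tested 10 fell and none rose, and the summed level went from 249 to 253 FPKM in the CD libraries to 130 to 134 FPKM in the SGFD libraries. Of 8 markers of granulocyte-monocyte progenitors 7 rose, and their sum went from 911 to 940 FPKM with CD to 3500 to 3880 FPKM with SGFD. Summed monocyte markers went from 179 to 187 FPKM to 309 to 339 FPKM (6 of 7 tested rose), and neutrophil markers from 12.5 to 12.7 FPKM to 37.6 to 40.2 FPKM (6 of 6 tested rose). Basophil or mast cell markers rose in 3 of 5 tested cases (sums of 34.7 to 39.9 and then 54.2 to 62.5 FPKM). Erythroid markers fell in 4 of 5 tested (223 to 229 and 103 to 107 FPKM). Macrophage markers fell in 5 of 5 tested (8.64 to 10.3 and 1.58 to 2.4 FPKM) and B cell markers in 3 of 4 tested (27.7 to 37.1 and 25.5 to 26.4 FPKM). Adgre1, a macrophage marker too low to be tested, averaged 0.401 ± 0.114 FPKM with CD and 0.521 ± 0.156 FPKM with SGFD. All sums cover the whole lists, which held 10 erythroid, 6 macrophage, 7 B cell and 6 megakaryocyte markers. Of 3 megakaryocyte markers tested 1 rose and 1 fell (46.9 to 51.6 and 49.3 to 50.9 FPKM), as did the 2 T or NK cell markers tested (105 to 110 and 123 to 142 FPKM). That last sum is mostly Nkg7, at 102.1 to 107.2 and then 120.4 to 139.5 FPKM, while Cd3e, Cd3d, Cd3g, Cd8a and Ncr1 were under 1 FPKM in all libraries, and the fall of Cd4 was lost under 6 alternatives, median-ratio scaling among them. The 1 stromal or endothelial marker tested, Pecam1, rose (list sums of 32.0 to 35.1 and 35.3 to 38.8 FPKM), but not with equal FPKM totals or without CD replicate 2, CD replicate 3 or SGFD replicate 1. Cd3e and Gp6 were listed at 0 in all 6 libraries, and Pax5 was under 1 FPKM in all. Single genes made up most of other sums as well. Monocyte sums with CD were mostly Lyz2, at 141.9 to 150.1 FPKM. Lyz2 had 128.2 to 145.8 FPKM with SGFD and did not pass. Erythroid sums were mostly Car2, which fell from 189.6 to 195.7 FPKM with CD to 87.2 to 91.0 FPKM with SGFD. B cell sums were mostly Cd79b, which did not pass (20.5 to 26.3 and 23.7 to 24.4 FPKM). The part of these cell types in the licensing genes was not tested. In bulk samples a larger share of cycling cells and more mRNA per cell cannot be told apart.

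Because the 10 genes serve 1 process, their promoters are shown for the E2F-type sequence known from S phase genes. RefSeq windows of 250 bases before to 50 bases after a transcript start (GRCm38.p6) were present for 8 members, in 9 windows, 2 of them for Mcm7; Mcm4 and Gmnn had none. The letters searched on both strands were TTTCGCGC, TTTGGCGC, TTTCCCGC and TTTGCCGC, whose matches can overlap each other. At least 1 of the 4 was present in 6 of the 9 windows, belonging to Mcm3, Mcm5, Mcm6, Mcm7, Cdt1 and Cdc6, against 2.26% of all 32851 windows and 4.15% of the windows of tested genes. Capitals mark the matched letters, read 5′ to 3′ on the strand of the gene. The matches of Mcm3 begin 19 and 38 bases after the RefSeq start. That of Cdt1 begins 32 bases after it, and the second of Mcm7 16 bases after it. The first of Mcm7 and that of Cdc6 begin 165 and 138 bases before it. Both of these lie inside the gene bounds from GENCODE given below, and that of Mcm7 also lies inside Ap4m1.
Mcm3, chr1:20820276-20820303, minus strand: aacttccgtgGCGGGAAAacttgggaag
Mcm3, chr1:20820263-20820284, minus strand: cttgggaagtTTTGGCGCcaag
Mcm5, chr8:75109348-75109375, plus strand: ccaagaacTTTCGCGCCAAAacgtccag
Mcm6, chr1:128359796-128359823, minus strand: cgtatgctTTTGGCGCGAAAagtgcgtg
Mcm6, chr1:128359735-128359762, minus strand: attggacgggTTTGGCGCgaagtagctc
Mcm7, chr5:138172031-138172058, minus strand: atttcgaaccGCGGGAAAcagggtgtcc
Mcm7, chr5:138171850-138171877, minus strand: ggtgacgacgTTTCGCGCcaatttcggt
Cdt1, chr8:122568037-122568064, plus strand: gaactaccttTTTGGCGCcatggcgcaa
Cdc6, chr11:98908003-98908030, plus strand: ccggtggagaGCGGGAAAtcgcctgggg

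Mcm5 and Mcm6 are shown at greater length, since both hold matches on both strands before the start while only Mcm5 passed the test. In Mcm5 the overlapping pair begins 153 bases before the transcript start, and in Mcm6 the overlapping pair begins 110 bases before it, with a further match 47 bases before it. Their stretches upstream of the RefSeq gene are printed whole. RefSeq begins Mcm5 at 75109468, 41 bases before the transcript start at 75109509 from which distances are counted, and Mcm6 at 128359705, which is its transcript start, so the 2 stretches do not end at the same distance from the start.
Mcm5, chr8:75109259-75109467, plus strand: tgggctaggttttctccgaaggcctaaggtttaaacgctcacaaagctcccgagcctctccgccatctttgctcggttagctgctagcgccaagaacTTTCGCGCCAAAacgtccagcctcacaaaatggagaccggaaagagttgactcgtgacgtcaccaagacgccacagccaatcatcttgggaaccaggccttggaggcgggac
Mcm6, chr1:128359706-128359955, minus strand: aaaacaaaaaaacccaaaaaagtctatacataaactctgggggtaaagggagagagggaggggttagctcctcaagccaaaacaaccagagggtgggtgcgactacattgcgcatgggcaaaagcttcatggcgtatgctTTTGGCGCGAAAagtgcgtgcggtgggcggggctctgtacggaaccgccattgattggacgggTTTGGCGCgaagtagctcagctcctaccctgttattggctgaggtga
Of the 6 members with a match, Mcm5, Mcm7 and Cdt1 passed the test, and Mcm3, Mcm6 and Cdc6 did not. Neither of the members whose windows held no match, Mcm2 and Mcm10, passed on the deposited values, though both passed as higher after median-ratio scaling. Whether matches and changes are linked was not tested. A match is a description of letters and not a measured binding site.

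The helicase subunits were among the abundant mRNAs of these cells. Averaged over the 6 libraries, Mcm7, Mcm3, Mcm6 and Mcm5 exceeded 97.1%, 96.9%, 96.8% and 96.0% of tested genes in FPKM, Mcm2 94.9% and Mcm4 92.0%. Gmnn and Cdt1 were lower, above 86.3% and 85.1% of tested genes, and Cdc6 and Mcm10 were near the middle, at 47.5% and 43.0%. These ranks compare levels per length. Between 945 and 14006 fragments per library lay behind each value, which puts the counting error of 1 value between 0.845% and 3.25%.

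**Figure D1:**
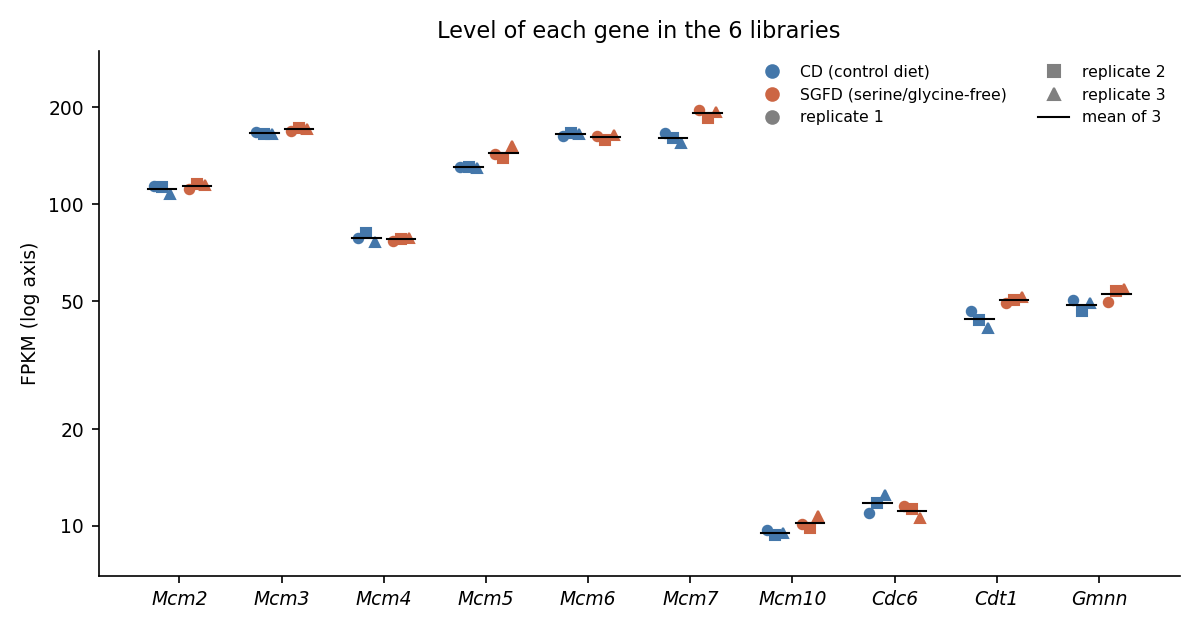
FPKM of each of the 10 genes (log axis) in the 3 CD and 3 SGFD libraries, with a bar at each mean of 3. The Mcm7, Mcm5 and Cdt1 points of the SGFD libraries all lie above those of the CD libraries, at 185.8 to 196.8, 139.4 to 151.3 and 49.2 to 51.3 FPKM, while the points of Mcm4, Mcm6, Mcm2, Cdc6 and Gmnn overlap between diets.

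Mcm7, a subunit of the helicase ring's catalytic core, lies on chromosome 5 from 138164583 to 138172422 on the minus strand (GENCODE M21, GRCm38). It stood at 166.4, 160.6 and 155.4 FPKM in CD replicates 1 to 3 and at 196.8, 185.8 and 193.4 FPKM in SGFD replicates 1 to 3. Every SGFD value exceeded every CD value, and the means were 160.8 ± 5.51 and 192.0 ± 5.61 FPKM (SD, n = 3 each). The log2 fold change was 0.25 ± 0.04 (SE; limma, adjusted p = 0.000491), with a 95% interval of 0.164 to 0.346. Without any 1 library it ranged from 0.231 to 0.28, and Mcm7 passed each time; after quantile normalization it was 0.0504 and did not pass (adjusted p = 0.27).

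Mcm7 shares bases with 2 genes on the opposite strand, and whether the authors counted by strand is not given in the sources used here, so reads in the shared parts cannot be assigned with certainty. The subunit gene of the COP9 signalosome, Cops6, overlaps its 3′ end by 64 bases and rose from 81.5 ± 5.25 with CD to 99.9 ± 11.5 FPKM with SGFD (limma, adjusted p = 0.008613), except with equal FPKM totals (0.07186) or after quantile normalization (0.0747). Ap4m1, which encodes a subunit of an adaptor complex for vesicle traffic, overlaps the 5′ end by 421 bases and went the other way, from 18.8 ± 0.978 to 16.3 ± 1.02 FPKM. Its fall (limma, adjusted p = 0.02832) was lost after median-ratio scaling (0.5554) and quantile normalization (0.3149), with the replicate number as a block, and in every fit that left out a library except those without replicate 2 of either diet. The annotation also places the microRNA genes Mir25, Mir93 and Mir106b inside Mcm7, between 138165321 and 138165818; none of the 3 is listed in the tables.

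Mcm5, on chromosome 8 from 75109569 to 75128439, encodes the subunit that forms a gate in the ring together with MCM2. Its CD values were 130.1, 130.6 and 129.8 FPKM, the smallest spread of the 10 genes relative to the mean. The SD of these CD values, relative to their mean, was below the smallest counting error given above. Its SGFD values were 143.5, 139.4 and 151.3 FPKM. The groups did not overlap, and SGFD replicate 3 was the highest library. The means were 130.2 ± 0.414 and 144.7 ± 6.05 FPKM, a log2 fold change of 0.15 ± 0.04 (limma, adjusted p = 0.008824). With equal FPKM totals the fold change of Mcm5 was 0.00852 and did not pass (adjusted p = 0.827).

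Mcm2, on chromosome 6 from 88883474 to 88898780, is the partner of MCM5 at the gate and a main target of the kinase that activates the helicase. It had 114.0, 112.8 and 107.7 FPKM with CD and 111.8, 115.7 and 115.1 FPKM with SGFD. The groups overlapped, and the log2 fold change was 0.03 with a 95% interval of -0.0539 to 0.122 (limma, adjusted p = 0.4764).

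Mcm3, on chromosome 1 from 20802968 to 20820312, is the subunit through which the ring is recruited to the loaded origin complex. It had 167.2, 165.6 and 165.7 FPKM with CD and 168.4, 173.1 and 171.4 FPKM with SGFD. All SGFD values lay above the CD values, as did the values of 19.6% of tested genes, but by little: the log2 fold change was 0.04, with a 95% interval of -0.0368 to 0.119 (limma, adjusted p = 0.3323).

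Mcm4 and Mcm6 form the catalytic core with MCM7. Mcm4, on chromosome 16 from 15623897 to 15637400, had 78.6, 81.1 and 76.4 FPKM with CD and 76.8, 78.1 and 78.3 FPKM with SGFD. Mcm6, on chromosome 1 from 128331590 to 128359664, had 163.5, 166.3 and 165.6 FPKM with CD and 163.2, 158.1 and 163.7 FPKM with SGFD. Both overlapped between diets and neither passed, with 95% intervals of the log2 fold change from -0.106 to 0.0721 for Mcm4 (limma, adjusted p = 0.7298) and from -0.11 to 0.049 for Mcm6 (adjusted p = 0.4784). The transcript start of Mcm4 lies 466 bases from that of Prkdc, the DNA repair kinase gene on the other strand. Prkdc fell from 6.68 ± 0.367 to 4.17 ± 0.429 FPKM (limma, adjusted p = 0.0003218), also under each of the 3 scalings, beside a log2 fold change of -0.02 for Mcm4.

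The 6 subunits enter the ring in equal numbers, but their mRNAs were not equally abundant, and their proportions differed between the diets. Within each library the summed FPKM of Mcm2 to Mcm7 was divided into shares. Mcm7 made up 20.3%, 19.7% and 19.4% in the CD libraries and 22.9%, 21.9% and 22.1% in the SGFD libraries, without overlap, a difference of 2.51 percentage points between the means. Mcm6 went the other way, from 19.9%, 20.4% and 20.7% to 19.0%, 18.6% and 18.7%, also without overlap. Mcm4 was the least abundant in every library, with 9.54% to 9.93% in CD libraries and 8.92% to 9.19% in SGFD libraries. Mcm5 took 15.9% to 16.2% and then 16.4% to 17.3%, while the ranges of Mcm2 and Mcm3 overlapped. These shares depend on one another, since they add up to the whole, and are given without a test.

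The order of the subunits changed at the top. Mcm7 was the most abundant subunit mRNA in 3 of 3 SGFD libraries and in none of the CD libraries, where Mcm3 led in replicates 1 and 3 and Mcm6 in replicate 2. In CD, Mcm3, Mcm6 and Mcm7 lay close together, at means of 166.2 ± 0.862, 165.1 ± 1.48 and 160.8 ± 5.51 FPKM, and neighbours in that order did not differ beyond their spread. With SGFD each step of the order, from Mcm7 over Mcm3, Mcm6, Mcm5 and Mcm2 to Mcm4, exceeded the SDs of the neighbours. Mcm5, Mcm2 and Mcm4 came last in that order in all 6 libraries. Below them stood Gmnn and Cdt1, which differed by less than the SD of Gmnn with SGFD (52.6 ± 2.48 and 50.2 ± 1.02 FPKM), then Cdc6 and Mcm10. The ratio of Mcm7 to Mcm6 was 1.02, 0.965 and 0.938 with CD and 1.21, 1.18 and 1.18 with SGFD. The ratio of Mcm5 to Mcm6 was 0.784 to 0.796 with CD and 0.879 to 0.924 with SGFD, whereas that of Mcm4 to Mcm6 overlapped, at 0.461 to 0.488 and 0.471 to 0.494. The most abundant subunit exceeded the least abundant 2.05 to 2.17 times in CD libraries and 2.38 to 2.56 times in SGFD libraries.

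**Figure D2:**
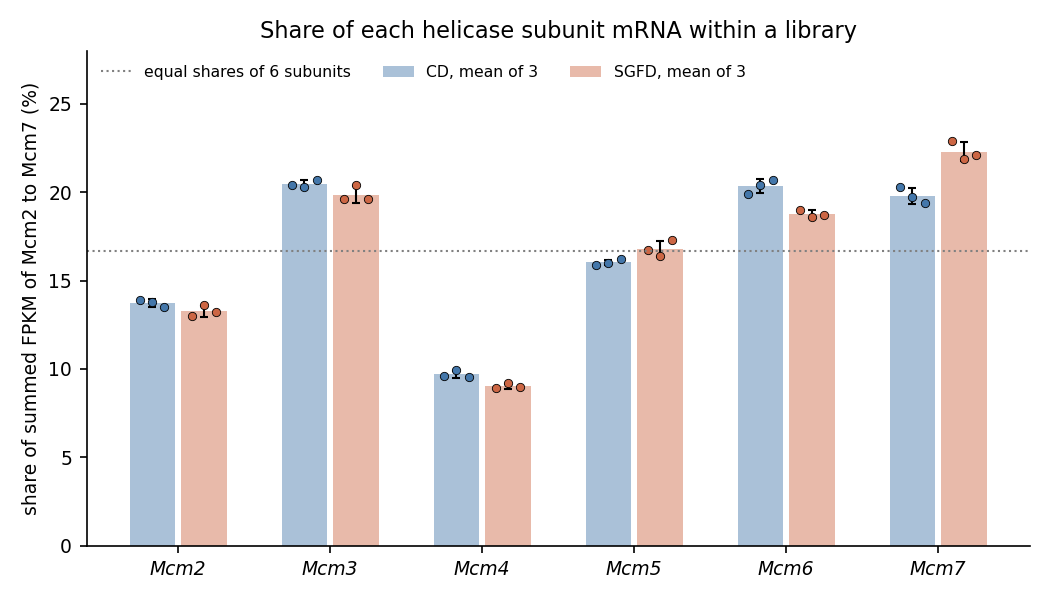
Share of each helicase subunit in the summed FPKM of Mcm2 to Mcm7 within a library (%), with bars for the means of 3, points for libraries, error bars for the SD and a dotted line at equal shares. The SGFD points of Mcm7 (21.9% to 22.9%) lie above its CD points (19.4% to 20.3%), and those of Mcm6 (18.6% to 19.0%) lie below (19.9% to 20.7%).

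Of the loading factors, Cdt1 rose and Cdc6 did not pass. Cdt1, on chromosome 8 from 122568015 to 122573554, had 46.7, 43.8 and 41.3 FPKM with CD and 49.2, 50.2 and 51.3 FPKM with SGFD. The groups did not overlap, and the means were 43.9 ± 2.67 and 50.2 ± 1.02 FPKM. The log2 fold change was 0.19 ± 0.05 (limma, adjusted p = 0.008611). The annotation places Cdt1 inside Gm20388, a gene of the same strand that is not in the tables. Over the 6 fits that each left out 1 library the adjusted p rose to at most 0.044, and with equal FPKM totals the fold change was 0.0507 (adjusted p = 0.398). Cdc6, the ATPase that recruits CDT1 and the helicase, lies on chromosome 11 from 98907801 to 98923940 and had 11.0, 11.8 and 12.5 FPKM with CD and 11.5, 11.3 and 10.6 FPKM with SGFD. Its groups overlapped, and the 95% interval of its log2 fold change ran from -0.224 to 0.0828 (limma, adjusted p = 0.3969).

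Geminin mRNA did not pass. Gmnn, on chromosome 13 from 24751845 to 24761923, had 50.3, 46.4 and 49.2 FPKM with CD and 49.8, 53.6 and 54.5 FPKM with SGFD, with SGFD replicate 1 inside the CD range. The log2 fold change was 0.11 with a 95% interval of -0.0018 to 0.223 (limma, adjusted p = 0.08218), and Gmnn passed without SGFD replicate 1 (0.149, adjusted p = 0.0416). The ratio of Cdt1 to Gmnn, the loading factor to its inhibitor, was 0.927, 0.944 and 0.839 in CD libraries and 0.988, 0.937 and 0.941 in SGFD libraries. These ranges overlapped, and the means were 0.903 ± 0.0564 and 0.955 ± 0.0285.

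Mcm10, on chromosome 2 from 4989714 to 5012791, had 9.7, 9.37 and 9.49 FPKM with CD and 10.1, 9.87 and 10.7 FPKM with SGFD. The 3 SGFD values lay above the 3 CD values, but the difference did not pass, at 0.09 with a 95% interval of -0.0505 to 0.236 (limma, adjusted p = 0.2352).

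**Figure D3:**
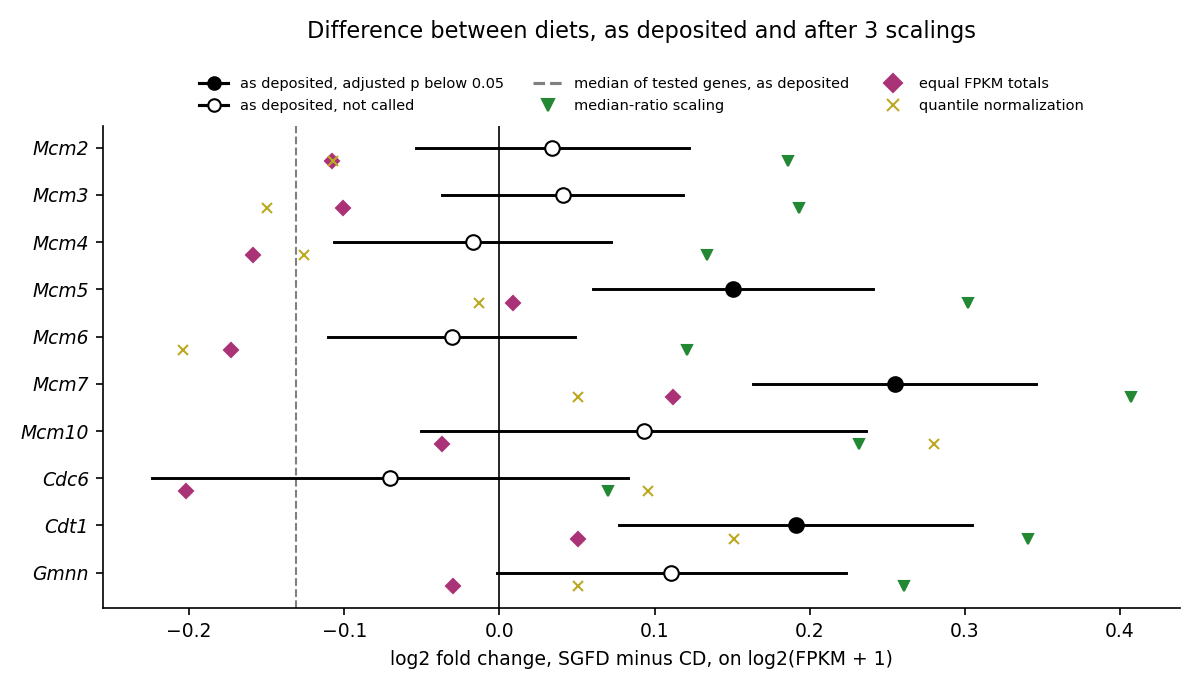
Log2 fold change of SGFD against CD for each gene on the deposited values (circles with 95% intervals, filled where the adjusted p was below 0.05) and after 3 scalings between libraries (coloured marks), with a dashed line at the median of all tested genes. Mcm7 (0.25), Cdt1 (0.19) and Mcm5 (0.15) pass on the deposited values. All 10 genes lie farther right after median-ratio scaling and farther left with equal totals.

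The position of the 10 genes among genes of similar length differed. Across tested genes grouped into 10 bins by their longest annotated transcript, the median log2 fold change went from 0.13 in the shortest bin to -0.38 in the longest. Mcm7 (0.25 against a bin median of -0.11), Cdt1 (0.19 against -0.07) and Mcm5 (0.15 against -0.13) stood above their bins. Mcm2, Mcm3 and Mcm4 shared the bin of Mcm5 and were above its median as well, and Mcm6 (-0.03) was above its bin median of -0.17. Mcm10 and Cdc6, both in a bin at -0.21, were above it. Gmnn, in the shortest bin, was the exception, with 0.11 against 0.13. Genes outside the 10, such as Prkdc above and Pole, Atr and Mki67 below, were not compared with their bins. Their rises and falls are given without regard to length.

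Of 98 tested genes that act around the licensing step or mark the cell cycle, 26 rose, 21 fell and 51 did not pass, with a median log2 fold change of -0.02. Beside these and the counts per list below stand the shares of all tested genes, 17.7% higher and 41.8% lower. Under the scalings these counts ran from 45 higher and 5 lower after median-ratio scaling to 8 higher and 42 lower with equal FPKM totals. Of 7 genes listed for the origin recognition complex, which marks the origin, 1 rose and 1 fell. Lrwd1, 1 of the 7, encodes an associated protein and not a subunit. Orc6 went from 24.9 ± 1.41 FPKM with CD to 29.6 ± 0.666 FPKM with SGFD (limma, adjusted p = 0.003322), a rise that did not pass with equal FPKM totals (0.1459). Orc4 went from 7.69 ± 0.133 to 6.41 ± 0.638 FPKM (adjusted p = 0.02674). It lost its call after median-ratio scaling and quantile normalization, and in every fit that left out a library except that without SGFD replicate 2. Of 4 tested relatives and partners of the MCM proteins only Mcm9, a helicase of DNA repair, passed, from 5.11 ± 0.36 to 4.03 ± 0.227 FPKM (limma, adjusted p = 0.01378). That call was lost after median-ratio scaling (0.1223) and quantile normalization (0.9269) and without CD replicate 1 or CD replicate 2. Mcmdc2 stayed under 1 FPKM in all libraries and was not tested.

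Among 12 genes that switch the loaded helicase on, 2 rose and 3 fell. Cdc7, the kinase that phosphorylates the MCM ring to fire the origin, had 17.8, 16.9 and 17.1 FPKM with CD and 10.4, 13.6 and 10.3 FPKM with SGFD. Every SGFD value was below every CD value, and SGFD replicate 2 was the highest of its group. The fall, a log2 fold change of -0.56 ± 0.09 (limma, adjusted p = 0.0005702), passed under each alternative tried. Its activating subunit Dbf4 had 23.9, 21.3 and 24.1 FPKM with CD and 24.4, 26.6 and 24.5 FPKM with SGFD (adjusted p = 0.1222). The ratio of Cdc7 to Dbf4 was 0.707 to 0.794 with CD and 0.423 to 0.512 with SGFD. Of the GINS subunits, which complete the active helicase, Gins1 rose from 23.6 ± 2.16 to 27.9 ± 1.16 FPKM (limma, adjusted p = 0.01174) and Gins2 from 36.2 ± 2.81 to 41.7 ± 1.64 FPKM (adjusted p = 0.01532). Neither passed with equal FPKM totals, Gins1 did not pass without CD replicate 2, and Gins2 did not pass without CD replicate 1 or SGFD replicate 1. Gins3 fell from 8.72 ± 0.223 to 7.35 ± 0.433 FPKM (limma, adjusted p = 0.02011), though not after median-ratio scaling or quantile normalization nor without CD replicate 2 or CD replicate 3.

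CDT1 protein is removed in S phase by ubiquitin ligases, and of 10 genes of that turnover 2 rose and 4 fell. Dtl, which encodes the CDT2 subunit that recognises CDT1 on the replication clamp, had 31.3, 30.2 and 30.4 FPKM with CD and 23.7, 22.6 and 20.1 FPKM with SGFD. The groups were well apart, with a log2 fold change of -0.45 ± 0.06 (limma, adjusted p = 0.0001915) that passed under each alternative. The ratio of Cdt1 to Dtl mRNA was 1.49, 1.45 and 1.36 with CD and 2.08, 2.22 and 2.55 with SGFD. The scaffold genes Cul1 and Cul4a fell as well, from 45.5 ± 1.81 to 39.5 ± 0.724 and from 27.2 ± 0.441 to 23.3 ± 0.774 FPKM (limma, adjusted p = 0.003796 and 0.00432), though neither after median-ratio scaling. Ddb1, the adaptor between DTL and its scaffold, rose from 140.6 ± 3.76 with CD to 155.9 ± 6.03 FPKM with SGFD (adjusted p = 0.01173), a call that ended with equal totals, after quantile normalization and without CD replicate 1 or SGFD replicate 1. Pcna encodes the clamp, and its level was 352.7 ± 6.3 FPKM with CD and 377.2 ± 5.07 FPKM with SGFD (limma, adjusted p = 0.03696). The direction for Pcna turned under equal FPKM totals (-0.05) and quantile normalization (-0.21, where it passed as lower). Its call was lost with the replicate block, with the simpler variance model and in every fit that left out 1 library except the one without SGFD replicate 2.

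Of 12 genes of the replicative polymerases and primase 2 rose and 3 fell. Pole, the catalytic subunit of the leading strand polymerase, fell from 22.4 ± 0.788 to 18.5 ± 0.367 FPKM (limma, adjusted p = 0.001857), and Pold3, a subunit of the lagging strand polymerase, from 32.2 ± 0.585 to 28.1 ± 1.33 FPKM (adjusted p = 0.007609). Both calls were lost after median-ratio scaling (0.08224 and 0.4579). Pole3 and Prim2, subunits of polymerase epsilon and of primase, rose from 88.8 ± 1.3 to 101.9 ± 6.02 and from 16.3 ± 0.267 to 19.0 ± 0.832 FPKM; neither passed with equal FPKM totals, and Pole3 did not pass after quantile normalization. Of 13 genes of the clamp, its loader, RPA and Okazaki fragment joining 4 rose and 1, Rfc1, fell, from 35.2 ± 1.33 with CD to 31.0 ± 1.19 FPKM with SGFD (limma, adjusted p = 0.01174), except after median-ratio scaling (0.6498) or without CD replicate 1. The loader subunit Rfc5 went from 57.5 ± 1.5 to 63.2 ± 1.6 FPKM (adjusted p = 0.01842), but had a log2 fold change of -0.01 with equal FPKM totals and lost its call after quantile normalization, with the simpler variance model and without CD replicate 3 or SGFD replicate 1. Rfc4 went from 38.0 ± 1.33 to 44.1 ± 4.73 FPKM (adjusted p = 0.02653), lost with equal totals, with no filter on low values, with the simpler variance model, and without CD replicates 1 or 3 or SGFD replicates 2 or 3.

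Genes that protect the fork fell in 4 of 9 cases, near the 41.8% of all tested genes, and none rose on the deposited values. With equal FPKM totals 6 fell and after quantile normalization 1, while after median-ratio scaling 2 fell and Tipin rose; Tipin also passed as higher without SGFD replicate 3. The checkpoint kinase genes Atr and Chek1 fell from 9.6 ± 1.14 to 6.43 ± 1.03 FPKM (limma, adjusted p = 0.002361) and from 18.1 ± 0.572 to 15.1 ± 0.325 FPKM (adjusted p = 0.003364). Tonsl, a reader of newly copied chromatin, fell from 10.1 ± 0.542 to 7.71 ± 0.257 FPKM, and Wdhd1, which ties the helicase to the polymerase, from 17.4 ± 1.18 to 14.6 ± 0.848 FPKM. Atr passed under each alternative; Chek1 and Wdhd1 did not pass after median-ratio scaling or quantile normalization, Tonsl not after quantile normalization, and Wdhd1 not without CD replicate 3.

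Of 11 regulators of the G1/S step 2 were higher and 3 lower, beside 17.7% and 41.8% of all tested genes. Ccne1, cyclin E1, which drives entry into S phase, rose from 4.08, 4.48 and 4.45 FPKM to 7.47, 7.36 and 8.55 FPKM (limma, adjusted p = 5.859e-05), and E2f3, an activator of S phase genes, fell from 10.5, 9.31 and 10.2 FPKM to 6.09, 6.78 and 5.71 FPKM (adjusted p = 0.0001343). Both passed under each alternative. E2f1, another activator, averaged 21.6 ± 1.35 FPKM on the control food against 22.0 ± 0.674 FPKM (adjusted p = 0.7292). Ccna2 rose from 46.4 ± 0.991 to 52.4 ± 0.313 FPKM, not with equal FPKM totals (0.5396), and the pocket protein gene Rbl1 fell from 25.9 ± 0.74 to 21.7 ± 0.553 FPKM, not after median-ratio scaling (0.1048).

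The enzymes that supply DNA building blocks and the mitotic genes had higher median changes than the licensing genes, 0.22 and 0.23 against 0.07. These medians were not tested against each other. Nor do they allow for transcript length, although the bin medians of all tested genes went from 0.13 for the shortest to -0.38 for the longest. Of 7 supply genes 5 rose and none fell, against 2 higher and 1 lower with equal FPKM totals. Rrm2, the regulated subunit of ribonucleotide reductase, rose from 45.8 ± 2.31 to 60.8 ± 2.49 FPKM (limma, adjusted p = 0.0001153) and Tk1, thymidine kinase, from 34.0 ± 1.58 to 45.1 ± 1.73 FPKM (adjusted p = 0.0001331), both under each alternative. Rrm1 and Dut rose on the deposited values, from 104.9 ± 2.43 to 119.7 ± 4.88 and from 61.2 ± 3.05 to 71.5 ± 4.21 FPKM, but passed neither with equal totals nor after quantile normalization. Of 14 mitosis and proliferation markers 9 rose and 1 fell, against 5 and 2 with equal FPKM totals, where Aurka, Cenpa, Cdc20 and Ccnb2 did not pass. The call of Ccnb2 was also lost under 8 other alternatives. The smallest p in this list was that of Aurkb, a kinase of cell division, which rose from 39.7 ± 1.4 to 54.8 ± 2.15 FPKM (limma, adjusted p = 3.829e-05). Birc5 and Ccnb1 rose from 18.1 ± 0.914 to 23.0 ± 0.849 and from 32.7 ± 1.47 to 41.3 ± 3.32 FPKM, all 3 under each alternative. Mki67 was the 1 that fell, from 71.9 ± 1.46 to 61.5 ± 2.25 FPKM, and not after median-ratio scaling (0.1982).

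**Figure D4:**
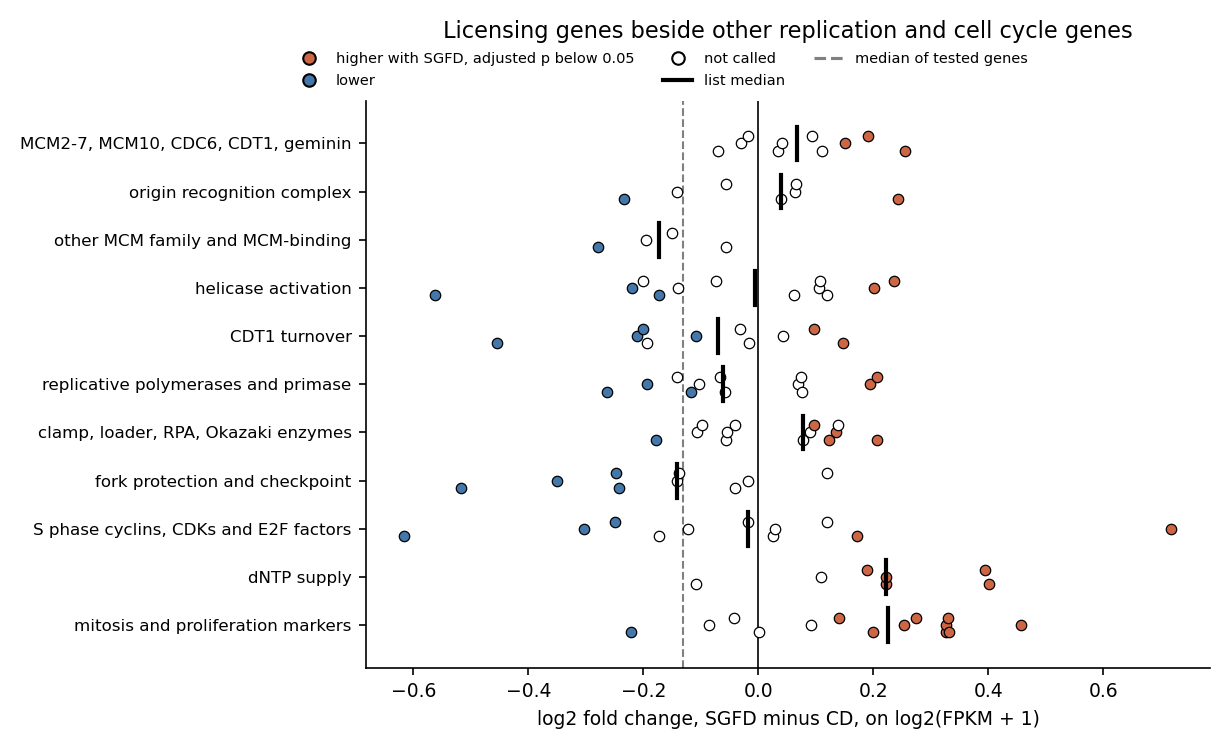
Log2 fold change of SGFD against CD for the 10 licensing genes (top row) and for other replication and cell cycle genes by list; each point is a gene, coloured where the adjusted p was below 0.05, with a bar at each list's median and a dashed line at the median of all tested genes. The licensing genes lie between -0.07 and 0.25, while single genes such as Cdc7 (-0.56), E2f3 (-0.62) and Ccne1 (0.72) lie farther out.

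Sought over the 6 libraries were the genes closest to the mean standardised profile of Mcm2 to Mcm7, by Pearson's correlation of log2 values. The replication and cell cycle lists were left out. That mean does not stand for each subunit, since Mcm6 and Mcm4 correlated negatively with Mcm7 (-0.57 and -0.25). Nip7 (r = 0.984), Fam89b (0.98), Faf1 (0.974), Pgm2 (0.969) and Hebp1 (0.968) came first. With 6 points that share 2 diets, such values are a description. Nip7 had 17.1, 17.1 and 15.7 FPKM with CD and 17.7, 17.7 and 19.1 FPKM with SGFD. Among the 10 genes themselves, Mcm7 and Cdt1 (0.93), Mcm5 and Mcm7 (0.92) and Mcm5 and Mcm10 (0.95) varied together across the 6 libraries, whereas Mcm6 ran against Mcm3 (-0.85) and Cdc6 against Mcm2 (-0.85).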

How the data were processed

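Libraries were built from RNA of sorted cells with a kit that keeps strand information, according to the labels. Tools listed for this series, per the submitters' processing notes, are HISAT2, StringTie and fastp, with builds mm10 and GRCm38 and neither versions nor roles; annotation and strand setting of the counting are not given in the sources used here. The deposited values, 1 per gene and library, are taken as FPKM made by the authors; no header names the unit. All 15509 genes above 0 gave whole fragments, with a tolerance of 0.02, and so 18684580 to 19847090 fragments per library, the smallest whole numbers that fit. For genes above 0 in only 1 library this was fixed in advance, since they were set to 1 fragment. For genes at 0 in some libraries a fit was also likely without whole fragments, since many multipliers were tried. Recovery in either kind of gene is no evidence on the unit. Replicates differed by 2.82 to 12.7 in chi-square per gene, so none was a copy.

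The test was limma 3.58.1 (R 4.3.3, trend and robust settings) of log2(FPKM + 1), over genes that reached 1 FPKM in 3 or more libraries; fold changes on this scale understate those of low genes. The pipeline was tested on simulated data in which few genes changed, in equal numbers up and down. The real data differ in both respects, so that simulation does not bear on the choice of scaling. Named were all 10 members and up to 4 genes of smallest p per other list, with those going against most called genes of that list. The 5 genes closest to the mean subunit profile were named too. Prkdc, Ap4m1 and Cops6 were added because they adjoin members, and E2f1 and Dbf4 as partners of named genes. Lrwd1 was added because it is not a subunit of the complex its list is named for. Tipin, Aurka, Cenpa, Cdc20, Ccnb2, Nkg7, Cd4, Pecam1, Lyz2, Car2 and Cd79b were added because calls or sums turned on them. Adgre1 was added because its means went against the tested markers of its list. All these additions were made after the values were seen. Members and lists were chosen with earlier results of these data known. Alternatives were other filters, pseudocounts, scalings, a simpler variance model (neither trend nor robust), a replicate block and leaving out each library.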

Additional observations from a re-analysis of the deposited data

How the results depend on the processing

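Other filters, pseudocounts and variance settings changed no member's direction or call, and scaling between libraries did. Median-ratio scaling gave 3170 genes higher and 2712 lower, 9 members higher, and 45 other replication genes higher and 5 lower; Mcm4 (0.134), Mcm6 (0.121) and Cdc6 (0.0702) turned positive. Equal FPKM totals gave 1030 genes higher and 6351 lower, 1 member higher and 5 lower, and 8 other replication genes higher and 42 lower; Mcm2 (-0.108), Mcm3 (-0.101), Mcm10 (-0.0371) and Gmnn (-0.0297) turned negative. Quantile normalization gave 2261 genes higher and 2552 lower, and 2 members higher (Mcm10, Cdt1) and 4 lower; Mcm2 (-0.107), Mcm3 (-0.15) and Mcm5 (-0.0133) turned negative and Cdc6 (0.0958) positive. The median of all tested genes moved from -0.131 to 0.00708, -0.258 and -0.017 under these scalings. Leaving out each library gave 3 to 4 members higher and 0 lower, 1596 to 1922 genes higher, 3588 to 4606 lower, and 20 to 28 other replication genes higher and 15 to 28 lower; Mcm4 ranged from -0.0384 to 0.00447, above 0 without CD replicate 2. The Mcm7 share differed by 2.22 to 2.76 percentage points and the ratio of Cdt1 to Gmnn by 0.0198 to 0.0723. With the replicate number as a block 3 members were higher and 0 lower, and it ended no member's call; same-numbered libraries deviated with correlations of -0.007, -0.227 and -0.133, so the numbers were not taken as pairs. Depth left a counting error of up to 3.25% per value, against differences of 1.22% to 19.4% in size.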
